A study of Mus musculus with 6 samples.

Results

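The genes described here encode 10 chains of the collagens that fibroblasts and other connective tissue cells make: Col1a1 and Col1a2 of type I, Col3a1 of type III, Col5a1, Col5a2 and Col5a3 of type V, Col6a1, Col6a2 and Col6a3 of type VI, and Col12a1 of type XII. They were taken by name from the deposited tables. All 10 were among the 23867 genes listed, and all 10 passed the filter on low counts that left 15028 genes for testing. Bulk RNA sequencing of mouse chondrocytes, the cells of cartilage, gave 6 libraries, 3 from wild-type mice (genotype MFN2wt) and 3 from mice of the genotype MFN2Col2a1-/-. The second label joins a loss of Mfn2, which encodes the mitochondrial fusion protein mitofusin 2, to the name of Col2a1, the gene of the main cartilage collagen. The sources used here do not give the age of the mice, their strain, the construct that deletes Mfn2, or whether the cells were cultured. The libraries of the second group carry the column names CRE1, CRE2 and CRE3 and are called knockout here. These names show the group but not which of its samples each library holds. The labels do not name separate animals or cultures, and p-values therefore reflect only how far these libraries scatter.

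Types I and III form the banded fibrils of skin, tendon, bone and most connective tissue, and type III is abundant where tissue is remodelled. Type V is built into those fibrils in small amounts and governs how fibrils start and how thick they become. Type VI forms beaded filaments in the matrix next to cells and is known for surrounding chondrocytes in cartilage. Type XII binds to the surface of fibrils. Type I procollagen is normally assembled from a pair of Col1a1 chains with a Col1a2 chain, and most type V from a pair of Col5a1 chains with a Col5a2 chain. The usual type VI molecule holds the Col6a1, Col6a2 and Col6a3 chains in equal number. Chondrocytes kept on plastic are known to lose type II collagen and to make more type I, a change often described as a turn towards a fibroblast-like state.

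Library totals ran from 31481779 to 37814723 counts for the knockout and from 39267487 to 40152687 for the wild type. Mfn2 stood at 10.2, 9.15 and 9.55 FPKM in CRE1, CRE2 and CRE3 and between 19.8 and 20.1 FPKM in the 3 wild-type libraries. FPKM are counts scaled to gene length and to the total of the library, and they are used to compare levels between genes. The exceptions are sums over gene lists and the most abundant member of each marker list. Those rest on counts that are not scaled to length. The knockout libraries were thus all below the wild-type libraries for the targeted gene (log2 fold change −0.84, SE 0.046, adjusted p = 2.24e-10, edgeR quasi-likelihood test). Changes are given on counts scaled by TMM factors, as log2 fold changes of knockout against wild type with their standard error (SE), and "rose" and "fell" are used of genes whose p in that test, adjusted by Benjamini-Hochberg over all 15028 genes, was under 0.05. TMM factors scale each library so that most genes centre on no change. Scaling by total counts alone shifted the median of all genes by −0.209 on the log2 scale, and every collagen change moved down by about as much. A ratio of chains within a library does not depend on this choice.

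The collagen genes did not move as a block. Of the 10, 3 rose, 5 fell and 2 did not pass the test, where 30.7% of all tested genes rose, 32.1% fell and 62.7% passed in either direction. The members' median log2 fold change was −0.074, beside −0.021 over all tested genes. Col5a3, Col3a1 and Col5a2 rose, and Col6a1, Col6a2, Col1a2, Col12a1 and Col6a3 fell. In TMM-scaled counts, given as CPM, the knockout and wild-type libraries did not overlap for 9 of the 10, against 67.1% of all tested genes, and Col1a1 was the exception. Between the strongest rise and the strongest fall lay a 4.51-fold difference in change.

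The 5′ flanking sequences of 4 members are shown because they let the upstream letters of genes that moved in opposite directions be compared. They belong to the member with the largest called change in each of types I, III, V and VI, a pair that rose and a pair that fell. The RefSeq promoter table held 7 of the 10 members. Each line gives the 150 bases before the annotated start, read 5′ to 3′ on the gene's strand, from RefSeq on the build GRCm38.p6, which precedes the build named for these data. Capitals mark matches, on either strand, to any of the 5 motifs searched: CCAAT, the box bound by NF-Y; TATAAA, the TATA box; GGGCGG, the core bound by Sp1; TGANTCA, the core bound by AP-1, where N is any base; and CAGACA, a core bound by SMAD factors. Matches may overlap.
Col3a1 (rose; chr1:45311388-45311537, plus strand): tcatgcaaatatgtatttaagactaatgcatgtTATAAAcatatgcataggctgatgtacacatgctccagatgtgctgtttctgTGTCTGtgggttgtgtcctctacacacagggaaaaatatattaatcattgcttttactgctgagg
Col5a3 (rose; chr9:20815068-20815217, minus strand): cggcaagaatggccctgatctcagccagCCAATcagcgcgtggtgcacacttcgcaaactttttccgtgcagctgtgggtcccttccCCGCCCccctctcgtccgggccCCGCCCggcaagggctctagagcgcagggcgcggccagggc
Col1a2 (fell; chr6:4505468-4505617, plus strand): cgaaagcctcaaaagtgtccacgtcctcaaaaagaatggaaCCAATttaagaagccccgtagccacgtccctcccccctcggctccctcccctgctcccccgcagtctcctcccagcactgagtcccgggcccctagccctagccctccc
Col6a1 (fell; chr10:76726045-76726194, minus strand): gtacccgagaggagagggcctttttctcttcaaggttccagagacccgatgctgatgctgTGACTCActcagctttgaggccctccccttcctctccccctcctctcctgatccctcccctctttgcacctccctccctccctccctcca

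Over the 250 bases before the start, CCAAT was found upstream of Col5a3 and Col1a2, and in 33.8% of the 32817 promoters of the table. TATAAA was found for Col3a1 alone among the 7 members, 117 bases before the start, and in 12.4% of all promoters. Whether that match works as a TATA box was not tested. TGANTCA was found for Col6a1 alone among the members, and in 6.75% of all promoters. GGGCGG was found for Col5a3 and Col1a2 among these 4 and in 32.7% of all promoters, and CAGACA for Col3a1 and Col1a2 and in 17.1%. The Col3a1 window was 35.2% G and C, below the median of 52.4% over all promoters, and the Col5a3 window was 62.8%. Col5a3, which rose, and Col1a2, which fell, thus shared both CCAAT and GGGCGG in this window. Likewise Col3a1, which rose, and Col1a2 shared the motif CAGACA in it. No motif of this set was common to the 4. These matches describe letters in a window and say nothing of whether a factor bound there.

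**Figure D1:**
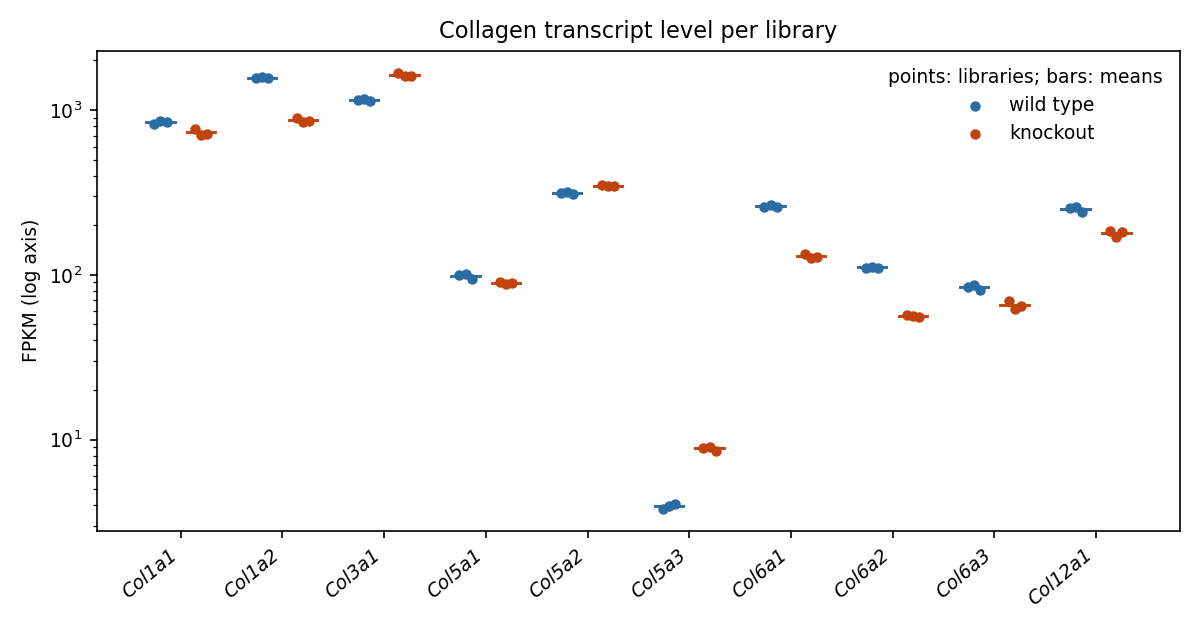
FPKM of the 10 collagen genes in each library on a log axis, with wild-type libraries in blue and knockout libraries in orange (points) and group means as bars. Col1a2 was the most abundant of the 10 in the wild-type libraries (1565 FPKM) and Col3a1 in the knockout libraries (1634 FPKM).

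The 2 chains of type I collagen parted. Col1a2 stood at 893, 850 and 856 FPKM in CRE1, CRE2 and CRE3 and at 1558, 1576 and 1562 FPKM in the wild-type libraries. All 3 knockout libraries were far below the wild-type libraries, and the gene fell 1.56-fold (log2 fold change −0.64, SE 0.023, adjusted p = 1.38e-12, edgeR). Col1a1 stood at 768, 710 and 719 FPKM in the knockout and at 825, 859 and 845 FPKM in the wild type. On the FPKM scale the knockout libraries were all lower, but in TMM-scaled CPM the groups overlapped, with 4927, 4497 and 4585 CPM against 4560, 4736 and 4651 CPM. CRE1 was the highest of all 6 libraries on that scale. The log2 fold change of Col1a1 was 0.0064 (SE 0.030, adjusted p = 0.865, edgeR), and it became −0.20 (adjusted p = 1.02e-05) with total counts alone, so the direction of Col1a1 depends on the scaling.

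The ratio of Col1a1 to Col1a2 was 0.860, 0.835 and 0.839 in the knockout libraries and 0.530, 0.545 and 0.541 in the wild-type libraries. In every library Col1a2 was the more abundant transcript per length, although the protein takes more Col1a1 chains. The ratio was 1.57-fold higher in the knockout, a log2 difference of 0.65 (SE 0.018), and the groups were far apart relative to their spread. An exact two-sided permutation test gave p = 0.1, the smallest value that 3 libraries against 3 allow, so no ratio here could pass a threshold of 0.05. Benjamini-Hochberg adjustment over the 11 ratios tested gave 0.122 for each ratio at that smallest value.

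Col3a1, whose product forms type III homotrimers that mix with type I in fibrils, went the other way. It stood at 1687, 1610 and 1604 FPKM in CRE1, CRE2 and CRE3 and at 1143, 1161 and 1138 FPKM in the wild-type libraries. The groups did not overlap, and the gene rose 1.65-fold (log2 fold change 0.72, SE 0.024, adjusted p = 3.92e-13, edgeR). Ranked by FPKM among all genes, Col3a1 was in place 21 in each knockout library and in place 30 or 31 in the wild-type libraries. Col1a2 moved from place 21 or 22 in the wild type to places 40 to 45 in the knockout. The ratio of Col3a1 to Col1a1 was 2.20, 2.27 and 2.23 in the knockout and 1.38, 1.35 and 1.35 in the wild type (log2 difference 0.71, SE 0.018, exact permutation p = 0.1). Each knockout library thus held more type III transcript for each type I transcript than any wild-type library.

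The 3 chains of type V collagen changed by unequal amounts. Col5a1, the chain that limits fibril formation, stood at 90.8, 88.5 and 88.6 FPKM in the knockout and at 99.3, 101 and 94.9 FPKM in the wild type. Its change did not pass the test (log2 fold change 0.069, SE 0.029, adjusted p = 0.0538, edgeR) and took the opposite sign, −0.14, with total counts alone (adjusted p = 0.000369). The call also turned on single libraries, since Col5a1 passed as a rise without CRE1, without CRE2 or without WT2 (adjusted p = 0.0421 to 0.0467, edgeR). Col5a2, its partner in the common heterotrimer, stood at 352, 344 and 344 FPKM in the knockout and at 313, 319 and 307 FPKM in the wild type. The knockout libraries were all higher, and the gene rose 1.28-fold (log2 fold change 0.36, SE 0.024, adjusted p = 2.82e-09, edgeR).

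Col5a3, a less widespread type V chain, had the largest change of the 10 members and the lowest level. It stood at 8.89, 9.07 and 8.58 FPKM in the knockout and at 3.81, 3.97 and 4.06 FPKM in the wild type, with 926 to 2097 counts per library. The groups did not overlap, and the gene rose 2.59-fold (log2 fold change 1.37, SE 0.050, adjusted p = 1.23e-12, edgeR). The ratio of Col5a3 to Col5a1 was 0.0979, 0.103 and 0.0969 in the knockout and 0.0384, 0.0392 and 0.0428 in the wild type. Col5a3 thus remained a minor type V transcript in all 6 libraries. The ratio of Col5a1 to Col5a2 was 0.258, 0.257 and 0.257 in the knockout and 0.317, 0.317 and 0.309 in the wild type, a log2 difference of −0.29 (SE 0.013, exact permutation p = 0.1).

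Type VI collagen fell, with 2 chains moving together and the third lagging behind. Col6a1 stood at 134, 126 and 128 FPKM in the knockout and at 259, 265 and 258 FPKM in the wild type, and it fell 1.74-fold (log2 fold change −0.80, SE 0.030, adjusted p = 2.12e-12, edgeR). Col6a2 stood at 57.3, 56.0 and 55.8 FPKM in the knockout and at 110, 112 and 111 FPKM in the wild type, and it fell 1.70-fold (log2 fold change −0.77, SE 0.027, adjusted p = 1.05e-12, edgeR). For both genes every knockout library was below every wild-type library. Col6a3, the long chain that carries most of the type VI globular domains, stood at 69.7, 62.2 and 64.6 FPKM in the knockout and at 84.9, 86.9 and 81.3 FPKM in the wild type. It fell only 1.11-fold (log2 fold change −0.16, SE 0.040, adjusted p = 0.00304, edgeR), and the call was lost without CRE2 (−0.10, adjusted p = 0.0605).

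The ratio of Col6a1 to Col6a2 was 2.34, 2.25 and 2.29 in the knockout and 2.35, 2.36 and 2.33 in the wild type, and the groups overlapped (log2 difference −0.033, SE 0.017, exact permutation p = 0.2). The ratio of Col6a3 to Col6a1 was 0.519, 0.493 and 0.506 in the knockout and 0.328, 0.328 and 0.315 in the wild type, and the groups lay far apart (log2 difference 0.64, SE 0.029, exact permutation p = 0.1). In the wild type Col6a2 was more abundant than Col6a3, and in the knockout their order was the reverse, without overlap in either group. Col6a1 and Col6a2 are neighbouring protein-coding genes on chromosome 10 in RefSeq, and Col6a3 is on chromosome 1. Col3a1 and Col5a2 are also neighbours, on chromosome 1, and both rose, with log2 fold changes of 0.72 and 0.36. Whether neighbourhood bears on these changes was not tested.

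**Figure D2:**
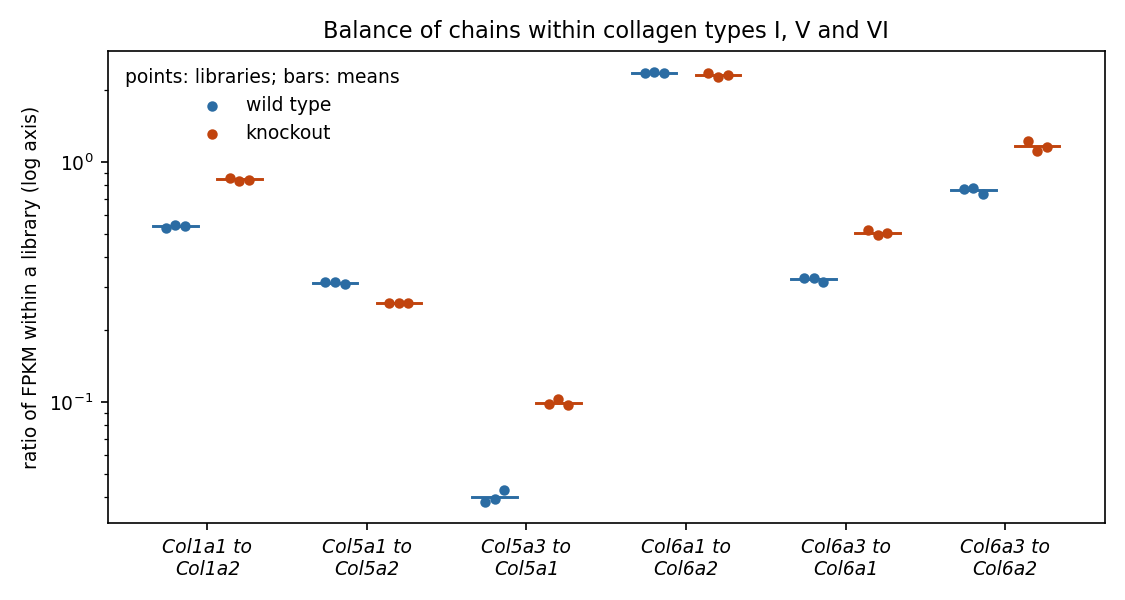
Ratio of FPKM between chains of the same collagen type in each library, on a log axis, with wild-type libraries in blue, knockout libraries in orange and group means as bars. The ratio of Col6a1 to Col6a2 overlapped between groups, near 2.30 and 2.35, while the other 5 ratios did not overlap.

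Col12a1, which encodes a collagen that links fibrils to their surroundings, stood at 184, 170 and 181 FPKM in the knockout and at 254, 256 and 241 FPKM in the wild type. The groups did not overlap, and the gene fell 1.21-fold (log2 fold change −0.28, SE 0.033, adjusted p = 2.31e-06, edgeR). Against a 1.2-fold change as the null, neither Col12a1 nor Col6a3 was called, and the other 6 called members were. The ratio of Col12a1 to Col1a1 was 0.244 ± 0.0074 in knockout libraries and 0.297 ± 0.011 in wild-type libraries (SD, n = 3 libraries each; exact permutation p = 0.1).

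**Figure D3:**
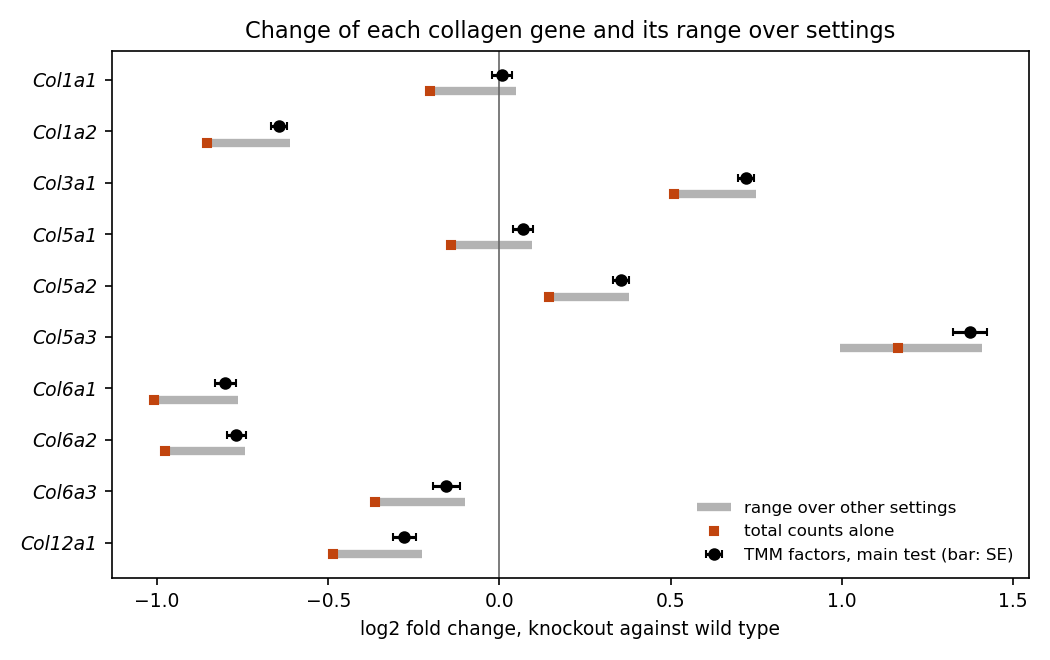
Log2 fold change of each collagen gene, knockout against wild type. Black points are the main test with TMM factors (bars are the SE), grey bars span the 20 other settings, and orange squares mark total counts alone. The grey bars of Col1a1 and Col5a1 cross 0, and those of the other 8 genes stay on 1 side.

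Among the 10 genes, the order of levels was Col1a2, Col3a1, Col1a1, Col5a2, Col6a1, Col12a1, Col6a2, Col5a1, Col6a3 and Col5a3 in the wild type. In the knockout it was Col3a1, Col1a2, Col1a1, Col5a2, Col12a1, Col6a1, Col5a1, Col6a3, Col6a2 and Col5a3. Within a group the FPKM ranges of neighbours in the order did not overlap in any case. Together the 10 genes took 2.52% ± 0.074 of all counts in knockout libraries and 2.86% ± 0.038 in wild-type libraries (SD, n = 3 libraries each). These shares rest on total counts alone, a scaling that shifted the collagen changes by about −0.209 on the log2 scale. Whether the sum differed under TMM factors was not tested. Of the 10 genes' summed FPKM, the type I chains went from 51.5% ± 0.311 in the wild type to 38.9% ± 0.195 in the knockout. Col3a1 went from 24.5% ± 0.046 to 39.8% ± 0.189, and the type VI chains from 9.75% ± 0.045 to 6.12% ± 0.044. Col1a1 alone held 18.0% ± 0.238 in the wild type and 17.8% ± 0.241 in the knockout, a difference within the spread between libraries.

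Replicate spread was small for all 10 genes, with a coefficient of variation of FPKM of 0.607% to 5.81% within a group. It was larger in the knockout for 7 of the 10. CRE1 had the highest FPKM of the knockout libraries for 9 members, all but Col5a3. The genes whose log2 CPM followed Col1a1 most closely over the 6 libraries, among 11788 compared, were Elk1 (Pearson r 0.973), Rwdd2b, Drg1, Uqcrc1 and Gemin5 (0.960). Like Col1a1, all 5 were highest in CRE1, and none of the 5 passed the test between groups. Because they were picked for likeness to Col1a1 over the same 6 libraries, both traits are largely set by the choice.

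The collagens of cartilage fell throughout, in contrast to the mixed changes of the 10 genes. All 8 listed cartilage collagens were lower (median log2 fold change −1.69). Col2a1 stood at 99.3, 91.2 and 90.6 FPKM in CRE1, CRE2 and CRE3 and at 709, 740 and 719 FPKM in the wild type (log2 fold change −2.74, SE 0.036, adjusted p = 7.81e-18, edgeR). The ratio of Col1a1 to Col2a1 was therefore 7.74, 7.78 and 7.93 in the knockout and 1.16, 1.16 and 1.18 in the wild type, a 6.70-fold difference (exact permutation p = 0.1). That rise of the ratio came with a fall of Col2a1, while Col1a1 itself had no change that held across scalings. Col11a1, a fibril chain of cartilage related to type V, fell 2.74-fold, and Col9a1, which coats type II fibrils, fell 3.77-fold.

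Other collagens of connective tissue and basement membrane went both ways, with 5 of 12 tested members higher and 5 lower, and 2 and 6 with total counts alone. Col16a1, a fibril-associated collagen, rose 2.26-fold, from 77.8 ± 3.97 to 176 ± 4.85 CPM. Col14a1, a close relative of type XII, fell 3.89-fold, from 18.0 ± 0.556 to 4.62 ± 0.396 CPM, and Col8a2, a network-forming chain, fell 7.97-fold. The alternative type VI chains Col6a4, Col6a5 and Col6a6, named after their values were seen, held at most 33 counts in any library. At these low counts Col6a6 fell, from 11, 33 and 29 counts in WT1, WT2 and WT3 to 0, 2 and 1 in CRE1, CRE2 and CRE3 (adjusted p = 0.000298, edgeR). Col6a5 was not called, and Col6a4 did not pass the filter.

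Enzymes and chaperones that make procollagen gave 9 rises and 7 falls among 19 tested genes (median log2 fold change 0.052), and 5 and 12 with total counts alone. P4ha2, a subunit of collagen prolyl hydroxylase, rose 1.88-fold, from 404 ± 2.90 to 760 ± 5.79 CPM, and its partner P4hb rose 1.49-fold. P3h2, a prolyl hydroxylase of a separate family, fell 2.83-fold. The collagen chaperone Serpinh1, named after its value was seen, fell from 1585 ± 23.3 to 1298 ± 38.6 CPM. Genes that trim propeptides and crosslink fibrils gave 3 rises and 5 falls among 13, and 3 and 8 with total counts alone. The lysyl oxidases Lox, from 7626 ± 53.4 to 13691 ± 163 CPM, and Loxl2, from 184 ± 6.94 to 778 ± 37.0 CPM, rose, and Pcolce2, an enhancer of propeptide removal, fell 2.27-fold.

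Genes of the matrix that surrounds these fibrils gave 7 rises and 8 falls among 16 tested, and 4 and 10 with total counts alone. Dcn, a small proteoglycan that binds type I fibrils, rose 3.21-fold, from 2047 ± 46.6 to 6563 ± 225 CPM. Fmod, a relative of Dcn, fell 1.86-fold. The matrix glycoprotein Tnc rose 2.92-fold, from 193 ± 7.43 to 563 ± 11.3 CPM. Receptors and uptake genes for collagen gave 5 rises and 6 falls among 11, and 1 and 6 with total counts alone. Itga1, a collagen-binding integrin chain, fell 2.54-fold, Cspg4, a proteoglycan that binds type VI collagen, fell 1.84-fold, and Mrc2, which takes up collagen fragments, rose 1.68-fold. Among 8 collagen-degrading proteases 4 rose and none fell (4 and 3 with total counts alone), with Mmp13, a collagenase of cartilage, 10.8-fold higher, and Mmp8, at 1.02 CPM against 0.243 CPM, and Mmp16 also higher.

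Genes of TGF-beta signalling, a pathway known to raise collagen I and III transcription, gave 6 rises and 5 falls among 14, but 1 rise and 8 falls with total counts alone. The ligands Tgfb2, from 281 ± 3.99 to 112 ± 0.552 CPM, and Tgfb3, from 154 ± 6.55 to 50.6 ± 1.73 CPM, fell. Ccn2, a gene that this pathway induces, fell from 727 ± 20.5 to 335 ± 15.9 CPM. Smad7 (log2 fold change 0.55, SE 0.084) and Skil (0.21, SE 0.063), named after their values were seen, rose in the main test. The activity of the pathway was not tested.

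Fibroblast markers gave 9 rises and 5 falls among 15 tested members (median log2 fold change 0.22), and over the other settings 7 to 9 rose and 2 to 5 fell. Dcn, Lum (log2 fold change 0.69, SE 0.025) and Pdpn (1.56, SE 0.030) rose, while the mesenchymal receptor Pdgfrb (−0.54) and the surface marker Thy1 (−0.47), named after their values were seen, fell. The summed level of the fibroblast markers was 11189 to 11568 CPM in the knockout and 5758 to 5889 CPM in the wild type. Dcn and Lum made up most of that sum in CPM, which are not scaled to gene length. In FPKM, the marker S100a4, named after its value was seen, stood above Dcn in the wild type (1259 against 1046). In the knockout S100a4 stood at 977 FPKM and Dcn at 2902 FPKM, and S100a4 fell (log2 fold change −0.16, SE 0.038). Myofibroblast markers gave 1 rise and 6 falls among 10, with Acta2, the smooth muscle actin, 2.72-fold lower and the cadherin Cdh11 1.52-fold lower. Tendon markers gave 1 rise and 5 falls among 6, with Thbs4 1.62-fold lower and Kera, a corneal and tendon proteoglycan, also lower.

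Chondrocyte markers gave 4 rises and 10 falls among 16 (median log2 fold change −0.80). The proteoglycan Acan fell 7.19-fold and Ucma, a secreted cartilage protein, fell 4.99-fold, and both remained present in the knockout, at 49.0 ± 1.55 and 52.3 ± 0.460 CPM. Among the 4 rises were Prg4 (3.12-fold) and Matn1 (2.46-fold), named after their values were seen. Osteoblast markers gave 1 rise and 6 falls among 7. The summed level of this list was 10625 to 12048 CPM in the knockout and 2475 to 2562 CPM in the wild type. Spp1, a bone and wound matrix protein, made up most of that sum in both groups and was the 1 rise. It stood at 11535 ± 813 CPM in the knockout and at 2404 ± 51.4 CPM in the wild type. The bone genes Ibsp and Dmp1 fell. All 14 macrophage markers fell, with a summed level of 327 to 338 CPM in the knockout and 3003 to 3030 CPM in the wild type, led by Lyz2, and with C1qc and Mrc1 among them. None of these marker genes was at 0 in all 6 libraries. Endothelial markers gave 2 rises and 2 falls among 6 tested, with Plvap higher and Kdr and Vwf lower, and summed to at most 14.7 CPM. Muscle markers gave 1 rise, of Des, among 6 tested, with Acta1 and Myh1 not called, and summed to at most 34.6 CPM. The part of these cell type markers in the collagen changes was not tested. In these bulk samples, fewer cells of a type and less RNA per cell cannot be told apart.

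**Figure D4:**
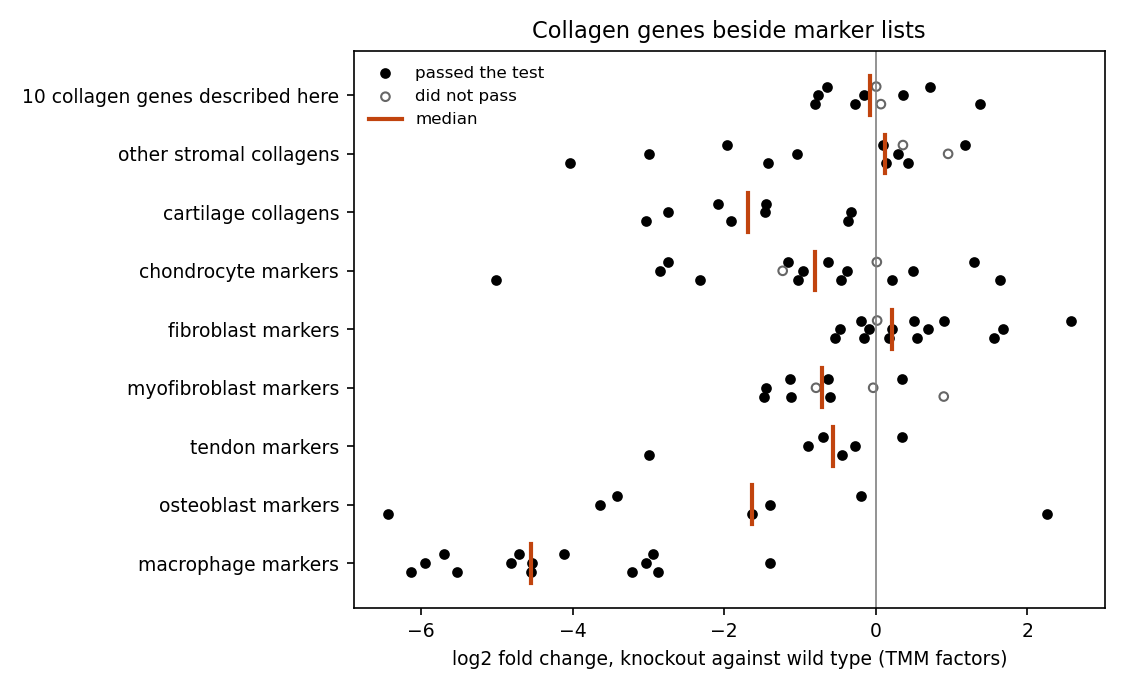
Log2 fold change of the 10 collagen genes and of tested members of 8 gene lists, knockout against wild type with TMM factors. Filled points passed the test, open points did not, and orange bars are medians, which were −0.074 for the 10 genes, −1.69 for cartilage collagens, 0.22 for fibroblast markers and −0.71 for myofibroblast markers.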

How the data were processed

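Per the labels' protocols, TRIzol was used to extract total RNA and a VAHTS Universal V6 kit to prepare libraries. Per the submitters' processing notes, fastp, HISAT2, HTSeq and the build GRCm39 were used, without versions. The annotation and the use of strand were not given in the sources used here. For 23867 genes in 6 libraries, the authors deposited whole-number counts and FPKM values. For entries of at least 50 counts, dividing a count by its column total and the deposited FPKM gave the same gene length in every library.

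Counts were tested with edgeR 4.0.16 in R 4.3.3 (two-sided quasi-likelihood test on group, scaled with TMM, filterByExpr at a minimum count of 10). Ratios were taken on FPKM and tested by exact permutation over libraries. Other settings used DESeq2 1.42.0, limma 3.58.1, other scalings and filters, log2(FPKM + 1) and log2(FPKM + 0.1), a trend on gene length taken out, a block on the column number, and each library left out. Replicate pairs differed beyond sampling noise (chi-square 3.19 to 8.09 per degree of freedom). The members, lists and alternatives were chosen with earlier results of these data known, and the promoter motifs were chosen after the data were seen. Named besides the members are Mfn2, Col2a1, the 3 members of each list with the smallest p, and the 5 genes most like Col1a1. The most abundant member of each marker list, by mean log2 CPM, is also named. Outside this rule, Col6a4, Col6a5, Col6a6, Serpinh1, Pdgfrb, Thy1, S100a4, Smad7, Skil, Matn1 and Prg4 were named after their values were seen.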

Additional observations from a re-analysis of the deposited data

How the results depend on the processing

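Over 20 other settings, Col1a2, Col3a1, Col5a2, Col5a3, Col6a1 and Col6a2 stayed called in the same direction in all 20. The log2 fold change of Col1a1 turned negative with upper-quartile factors (−0.085), total counts alone (−0.20), total counts without the 10 members and the 20 most abundant genes (−0.13), log2(FPKM + 1) with and without a filter (−0.20 in both) and log2(FPKM + 0.1) (−0.20), and it was called in these 6. Col5a1 also turned negative in these 6, at −0.022, −0.14, −0.063, −0.14, −0.14 and −0.14, and was called as a fall in 4 of them, all but the upper-quartile factors (adjusted p = 0.530) and the total counts without those genes (0.0680). Col5a1 was called as a rise with DESeq2's size factors (0.082), DESeq2 (0.082), limma-voom (0.068) and the length trend removed (0.095), and also without CRE1 (0.057, adjusted p = 0.0467), without CRE2 (0.094, 0.0448) and without WT2 (0.088, 0.0421). With a library left out, Col1a1 ranged from −0.029 to 0.047, Col5a1 from 0.041 to 0.094 and Col6a3 from −0.20 to −0.10. Against a 1.2-fold change, Col6a3 (−0.16) and Col12a1 (−0.28) were not called, 3 members fell in place of 5, and 5856 genes were called in place of 9430. Col6a3 was also lost with the length trend removed (−0.11, adjusted p = 0.0519). For the calls that moved with scaling or filters, the cause was not tested. The share of rises among all calls was 48.9% in the main test, 26.8% under total counts alone and 38.0% under upper-quartile scaling. The difference in the members' share of counts was −0.35 percentage points, and −0.27 as a share of FPKM. Both shares divide by a total of the library, and no alternative put the members' sum on TMM factors. Over the 20 settings, the tested list of procollagen enzymes and chaperones gave 5 to 9 rises and 3 to 12 falls, the TGF-beta genes 1 to 7 and 4 to 8, the collagen receptors 1 to 5 and 5 to 6, the other connective tissue collagens 2 to 5 and 3 to 6, the trimming and crosslinking genes 3 and 3 to 8, the surrounding matrix genes 4 to 7 and 6 to 10, the osteoblast markers 1 and 2 to 6, the endothelial markers 1 to 2 and 0 to 2, and the collagenases 2 to 5 and 0 to 3. All 14 macrophage markers fell in each setting, and 6 to 8 cartilage collagens did. Muscle markers gave 4 rises without CRE2. All 11 ratios kept their direction in each alternative.

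With the number at the end of the column names as a replicate block, 3 members rose and 5 fell, as without it, and 9094 genes were called. Same-numbered libraries deviated with correlations of −0.086, 0.055 and −0.095, and differently numbered libraries with −0.075 to 0.149. Same-numbered libraries were thus not more alike than others. With 3 libraries a group, these values cannot show whether the samples were paired. The lowest count of any member was 926, and the precision rests on 3 libraries a group.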
